A study of Rattus norvegicus with 13 samples.

Results

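Integrins are the receptors by which cells hold the extracellular matrix, and laminins are the matrix proteins on which many epithelial and endothelial cells rest. The set described here holds the integrin alpha and beta subunits, the laminin alpha, beta and gamma chains, and the adaptors and kinases that tie integrins to the cytoskeleton. Members were taken by gene name, as rows named for an integrin alpha or beta subunit or a laminin chain, or as *Ilk*, *Ptk2*, *Tln1*, *Tln2*, *Fermt1* or *Fermt2*, with a mean of at least 10 normalized counts over all pups. This gave 35 members of the 14606 rows that passed the same filter and of 14716 rows in all: 14 alpha subunits, 7 beta subunits, 5 laminin alpha, 2 beta and 2 gamma chains, and 5 adaptors or kinases. Each member had 1 row, with an Ensembl transcript identifier. *Fermt1* has no row in the table and is not analysed here.

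RNA was sequenced from the laser captured posterior ventricular zone (VZ) of male Long Evans rats on postnatal day 2 (PN2). The VZ is the layer of progenitors, radial glia among them, that lines the lateral ventricle. The control group was 7 euthyroid pups of dams given vehicle (0 ppm), and the PTU group was 6 hypothyroid pups of dams given 3 ppm propylthiouracil (PTU), which blocks thyroid hormone synthesis, in their water. Each pup came from its own litter, so pups are biological replicates. The captured strip was chosen by its pseudostratified look, and its RNA was partly degraded by the study's account. The ventricle it lines also holds the choroid plexus, whose cells, the study states, were not part of the sequenced material. Values are the authors' normalized counts, that is, estimated reads per row divided by a size factor per pup. They are not corrected for transcript length, so levels of different genes are not compared.

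The reads behind the values, estimated from the step between low values, ranged from about 22300000 to 43500000 in controls and from about 28400000 to 44400000 in PTU exposed pups. The 3 highest rows of a pup, none of them a member, took 32.4 to 60.1% of the total in controls and 23.9 to 57.0% in PTU exposed pups. All 9 markers of radial glia listed to check the tissue were present, *Vim* among them at 23548 ± 2077 normalized counts in controls (SD, n = 7).

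As background, an integrin is a dimer of 1 alpha and 1 beta subunit, and the pairing sets the ligand. Alpha 3, alpha 6 and alpha 7 with beta 1 bind laminin, alpha v with several beta subunits binds matrix proteins that carry an RGD motif, and alpha v beta 3 is also known as a cell surface binding site for thyroxine. Talins and kindlins (*Tln1*, *Tln2*, *Fermt2*) bind the tails of beta subunits and switch integrins on, and integrin linked kinase (*Ilk*) and focal adhesion kinase (*Ptk2*) work downstream of them. A laminin is a trimer of an alpha, a beta and a gamma chain, and radial glia are anchored to the pial basement membrane through such contacts.

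Thyroid hormone receptors bind DNA at the half-site AGGTCA, so the 250 bases before the annotated starts of the members were searched for it on both strands. Sequences are from RefSeq, build GRCr8, whereas the reads were aligned to mRatBN7.2, and 26 of the 35 members had an entry. The half-site was found in 1 of 26 members (3.85%), *Lama4*, and in 14.1% of 33469 promoters of the same length. The repeat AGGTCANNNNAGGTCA was found in 0 of 26 members and in 1 of the 33469 promoters. The GC box GGGCGG, the letters bound by Sp1, was found in 15 of 26 members (57.7%) and in 30.5% of all promoters, beside a median GC content of 61.0% in members and 51.2% in all. *Itgb5* and *Lamc1* are shown because they had the smallest p-values between groups among members with an entry, and *Lama4* because it alone held the half-site. Capitals mark AGGTCA or GGGCGG on either strand. The windows are read 5′ to 3′ toward the start.
Itgb5 (chr11:80449374-80449623, minus strand): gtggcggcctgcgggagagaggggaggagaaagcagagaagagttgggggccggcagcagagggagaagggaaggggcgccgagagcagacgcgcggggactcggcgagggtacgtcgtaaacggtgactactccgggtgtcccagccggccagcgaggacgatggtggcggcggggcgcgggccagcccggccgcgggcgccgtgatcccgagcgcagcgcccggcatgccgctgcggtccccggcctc
Lamc1 (chr13:68051987-68052236, minus strand): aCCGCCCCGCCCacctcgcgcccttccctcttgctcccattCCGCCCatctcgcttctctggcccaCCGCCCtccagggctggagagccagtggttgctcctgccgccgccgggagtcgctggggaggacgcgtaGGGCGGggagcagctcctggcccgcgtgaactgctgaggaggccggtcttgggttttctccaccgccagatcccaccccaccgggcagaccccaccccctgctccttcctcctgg
Lama4 (chr20:43946648-43946897, plus strand): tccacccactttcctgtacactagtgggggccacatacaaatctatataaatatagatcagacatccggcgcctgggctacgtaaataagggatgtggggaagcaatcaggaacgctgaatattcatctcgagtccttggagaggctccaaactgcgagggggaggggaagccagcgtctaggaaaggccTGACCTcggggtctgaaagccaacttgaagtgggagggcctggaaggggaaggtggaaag
The half-site of *Lama4* begins 60 bases before the start and lies on the opposite strand, as TGACCT. *Lamc1* held 5 GC boxes, some of them overlapping, and *Itgb5* held neither motif in this window. A match of letters is a description and not evidence of binding.

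In the comparison of PTU exposed with control pups, 0 of the 35 members passed an adjusted p of 0.05 in limma, as did 0 of all 14606 rows (0% of rows called). The lowest adjusted p of a member was 0.133, for *Fermt2*. The study, which tested the same pups with DESeq2, did report genes that passed a cutoff of 0.05 after adjustment. At an unadjusted p under 0.05 in limma, 10 members were lower in PTU exposed pups and 0 were higher (28.6% of members lower). Over all rows the same cutoff held 8.2% of rows as lower and 8.11% as higher. Without PTU pup 6 the count of members was 6, against 6.14% of all rows as lower. Of the 35 members, 28 had a log2 fold change below 0, against 49.3% of all rows. When all pups were given equal totals, which moved the median of all rows to 0.20, 17 members were below 0, against 21.5% of all rows. In the fit as reported the median log2 fold change was -0.18 for members and 0.00 for all rows. No member had groups without overlap, against 0.596% of all rows. In bulk tissue, fewer cells of a type and less RNA per cell cannot be told apart.

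**Figure D1:**
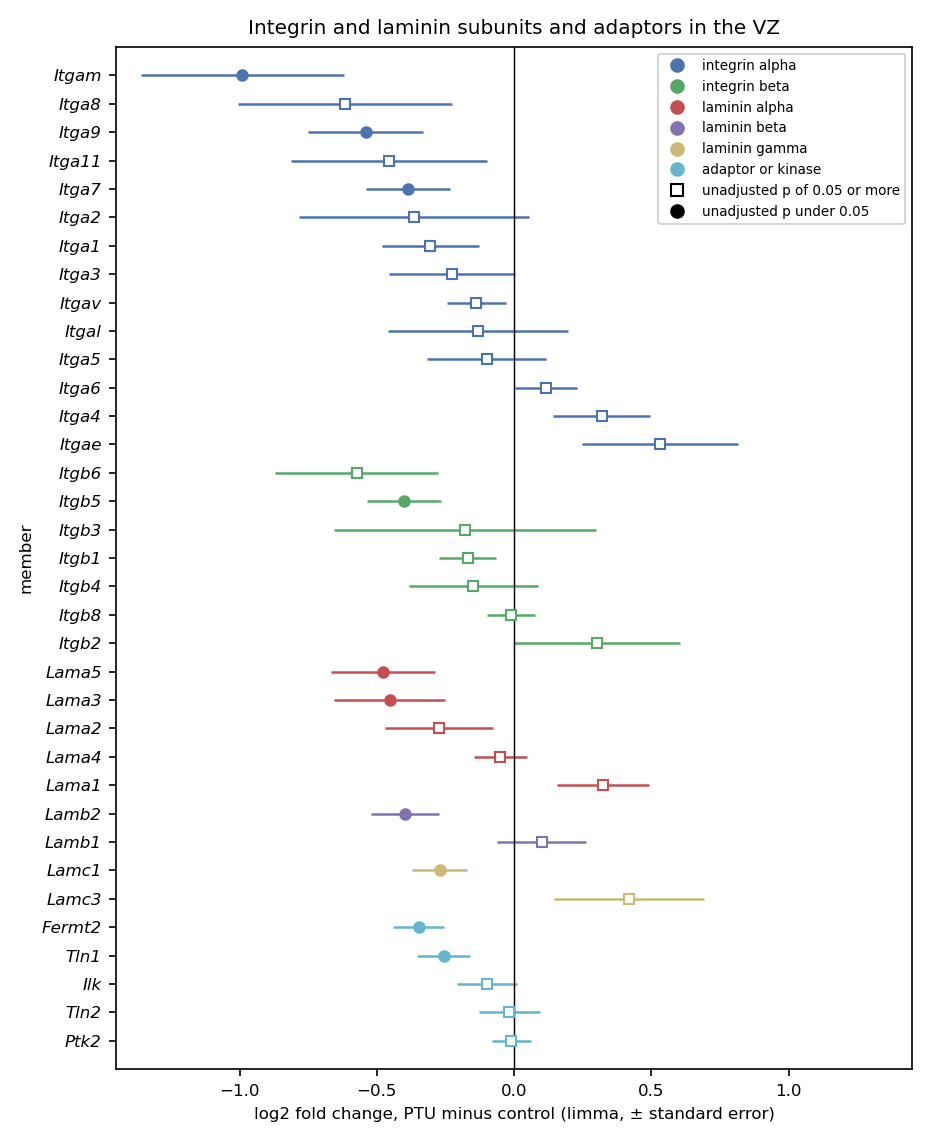
Log2 fold change of each of the 35 members, PTU minus control, with its standard error from limma, grouped and coloured by role. The 10 filled circles, with an unadjusted p under 0.05, all lie left of 0, and *Itgae* stands at 0.53.

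Of the 3 adaptors that switch integrins on, *Fermt2* and *Tln1* had lower means under PTU at an unadjusted p under 0.05, and *Tln2* did not. *Fermt2* encodes kindlin 2. It ranged from 3693 to 5121 normalized counts in controls (median 4206) against 3008 to 4207 under PTU (median 3227). Of the PTU exposed pups, 5 lay below every control and PTU pup 2, at 4207, lay inside the control range. Its log2 fold change was -0.35 (SE 0.09, limma adjusted p = 0.133, and unadjusted two-sided exact permutation p = 0.00758). Without PTU pup 2 the log2 fold change was -0.41 and the adjusted p in limma 0.0372, the only alternative under which a member passed. In that fit 179 of all 14606 rows passed, against 0 with all pups. *Tln1*, the talin of most cells, ranged from 3627 to 4737 in controls (median 4169) against 2863 to 4237 under PTU (median 3644). Its groups overlapped, with 3 PTU exposed pups below every control, and its log2 fold change was -0.26 (SE 0.10, limma adjusted p = 0.216).

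The other 3 adaptors or kinases had log2 fold changes near 0. *Ptk2* had a mean of 3047 ± 213 normalized counts under vehicle (SD, n = 7) against 3023 ± 179 under PTU (SD, n = 6), a log2 fold change of -0.01 with a standard error of 0.07. *Tln2*, the talin enriched in brain, had a log2 fold change of -0.02 (SE 0.11). *Ilk* averaged 1329 ± 136 and 1250 ± 224, a log2 fold change of -0.10 (SE 0.11, limma adjusted p = 0.676), which ranged from -0.18 to -0.043 when a pup was left out. The directions of all 3 turned once the pups were given equal totals.

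Among the 9 laminin chains, 4 were lower at an unadjusted p under 0.05 (44.4%), against 8.2% of all rows. Of the 9, 6 had a log2 fold change below 0 and 3 above, against 49.3% of all rows below 0. With equal totals *Lama4* turned above 0 and 0 chains were lower at that cutoff, against 0.555% of all rows. *Lamb2*, a beta chain of vascular and synaptic basement membranes, ranged from 2001 to 3549 normalized counts in controls (median 2534) against 1632 to 2473 under PTU (median 1930). All 6 PTU exposed pups lay below the control mean and 5 controls lay above every PTU exposed pup. The log2 fold change was -0.40 (SE 0.13, limma adjusted p = 0.167, and unadjusted two-sided exact permutation p = 0.0163).

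*Lamc1*, the gamma chain shared by most laminins, ranged from 3586 to 5229 in controls (median 4658) against 3390 to 4812 under PTU (median 3620). PTU pup 4 held the highest value of its group and control pup 6 the lowest of its own, and they crossed. The log2 fold change was -0.27 (SE 0.10, limma adjusted p = 0.205). *Lama5*, an alpha chain of epithelial and vascular basement membranes, ranged from 1183 to 2689 in controls (median 1935) against 832 to 1911 under PTU (median 1266). Its log2 fold change was -0.48 (SE 0.19, limma adjusted p = 0.233), with an unadjusted two-sided exact permutation p of 0.0559. Without PTU pup 6 that fold change was -0.35 (limma unadjusted p = 0.0638). *Lama3*, an alpha chain of epithelial laminins, averaged 825 ± 177 (SD, n = 7) and 618 ± 196 (SD, n = 6), a log2 fold change of -0.45 (limma adjusted p = 0.285), which was -0.28 without PTU pup 6, with an unadjusted p above 0.05. Its lowest value, 320, was again in a PTU exposed pup, while 4 controls lay above every PTU exposed pup.

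The chains with higher means were *Lama1*, *Lamb1* and *Lamc3*. *Lama1*, an alpha chain of early embryonic laminins, had a mean of 226 ± 46.4 normalized counts under vehicle (SD, n = 7) against 281 ± 47.0 under PTU (SD, n = 6), a log2 fold change of 0.32 (SE 0.17, limma adjusted p = 0.348). It ranged from 142 to 274 in controls (median 241) against 222 to 359 under PTU (median 271), and 1 PTU exposed pup lay below the control mean. *Lamb1* averaged 1317 ± 236 and 1430 ± 373, with a log2 fold change of 0.10 (SE 0.16), which ranged from -0.0023 to 0.21 when a pup was left out. *Lamc3*, a gamma chain that is less widely used, ranged from 52.1 to 168 in controls (median 60.5) against 76.2 to 150.2 under PTU (median 99.5). It had a log2 fold change of 0.42 (SE 0.27) and exceeded the control mean in all PTU exposed pups but 1. *Lama2* and *Lama4* had log2 fold changes of -0.27 and -0.05, and their groups overlapped widely.

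**Figure D2:**
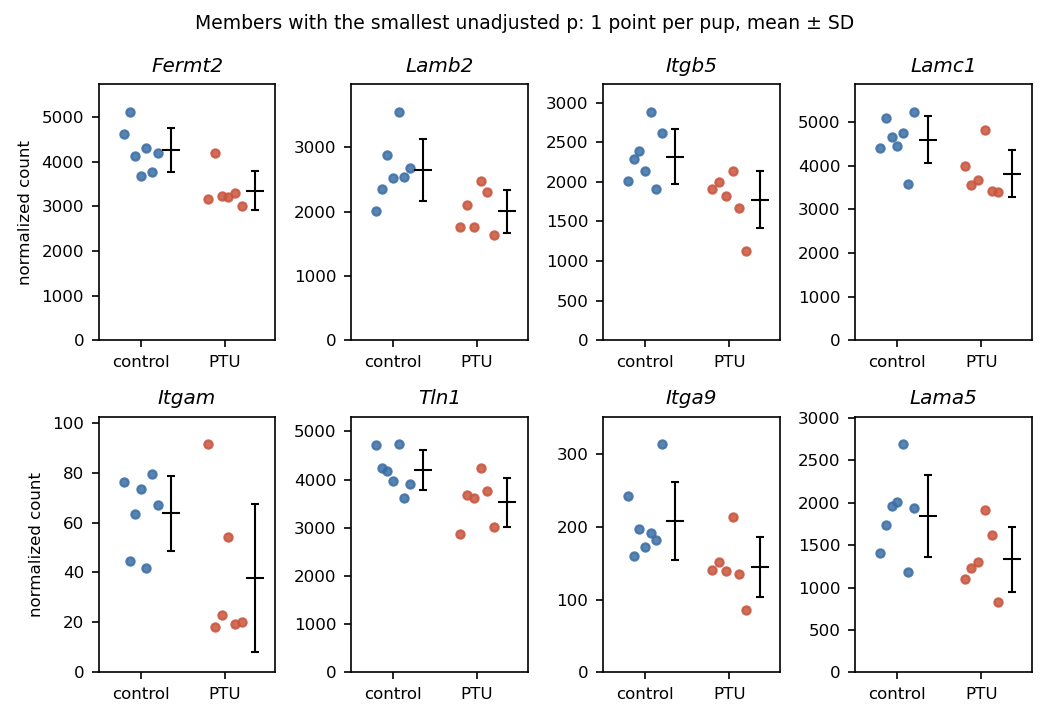
Normalized counts of the 8 members with the smallest unadjusted p in limma, 1 point per pup (blue, 7 controls; red, 6 PTU exposed pups), with the mean and SD of each group in black. In each panel the groups overlap, and in *Fermt2* 5 of the red points lie below every blue point.

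The alpha v integrins were of interest because the study stained alpha v beta 3 in the VZ. *Itgav* ranged from 1737 to 2687 normalized counts in controls (median 2108) against 1546 to 2125 under PTU (median 2008). All 6 PTU exposed pups lay below the control mean, and 1 lay below every control. The means were 2139 ± 336 in controls (SD, n = 7) and 1934 ± 212 under PTU (SD, n = 6), with a log2 fold change of -0.14 (SE 0.11, limma adjusted p = 0.538). *Itgb3*, the other subunit of the stained dimer, was a low row, between 7.44 and 43.0 normalized counts in controls (median 26.5) and between 8.12 and 65.1 in PTU exposed pups (median 17.9). The highest value was that of PTU pup 1, and the other 5 lay inside the control range. Its log2 fold change of -0.18 had a standard error of 0.48 (limma adjusted p = 0.884), so a moderate change in either direction was not detectable.

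*Itgb5*, which pairs with alpha v to bind vitronectin, had the smallest p of the beta subunits. It ranged from 1905 to 2883 normalized counts in controls (median 2288) against 1125 to 2142 under PTU (median 1864). All 6 PTU exposed pups lay below the control mean, with PTU pup 6 at 1125 the lowest. The log2 fold change was -0.40 (SE 0.13, limma adjusted p = 0.175, and unadjusted two-sided exact permutation p = 0.0117), and -0.27 without PTU pup 6. *Itgb6*, the epithelial partner of alpha v, ranged from 79.0 to 293 in controls (median 180) against 67.7 to 159 under PTU (median 109). Its log2 fold change was -0.57 (SE 0.30, limma adjusted p = 0.343).

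*Itgb8*, the partner with which alpha v frees TGF beta from its latent form in radial glia, barely differed between the groups. It ranged from 1394 to 1648 normalized counts in controls (median 1576) against 1228 to 1748 under PTU (median 1559), a log2 fold change of -0.01 (SE 0.09, limma adjusted p = 0.956). *Itgb1*, the common partner of most alpha subunits, ranged from 4836 to 7139 in controls (median 5195) against 4048 to 5495 under PTU (median 5128). The medians were close, control pup 5 held the highest value, and the log2 fold change was -0.17 (SE 0.10, limma adjusted p = 0.418), which was -0.10 without control pup 5.

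**Figure D3:**
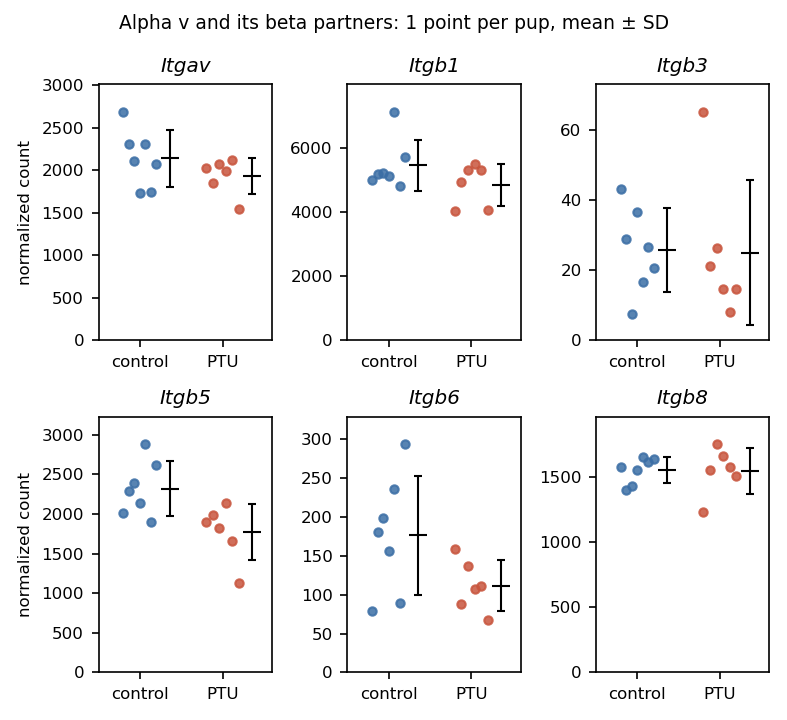
Normalized counts of *Itgav* and the beta subunits that can pair with it, 1 point per pup (blue, 7 controls; red, 6 PTU exposed pups), with the mean and SD of each group in black; each axis starts at 0. *Itgb5* shows the clearest shift, from 2319 to 1776 on average, and *Itgb8* stays at 1549 and 1542.

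Ratios of 2 subunits within a pup hardly depend on how the pup was scaled, and 7 such ratios were compared between groups. The log2 ratio of *Lamc1* to *Lamb1* was 1.82 ± 0.14 under vehicle (SD, n = 7) and 1.44 ± 0.30 under PTU (SD, n = 6). The difference of -0.37 had a two-sided exact permutation p of 0.0134, which was 0.0938 after Benjamini-Hochberg adjustment over the 7 ratios. Without PTU pup 2 it was -0.47 (adjusted p = 0.00884, exact permutation test), and without PTU pup 1 it was -0.29 (adjusted p = 0.212, exact permutation test). The ratio of *Lamb2* to *Lamb1* differed by -0.50 (exact permutation test, unadjusted p = 0.0571). The ratio of *Itgb5* to *Itgav* differed by -0.26 (exact permutation test, adjusted p = 0.208), that of *Itgb8* to *Itgav* by 0.13 (0.069 to 0.20 when a pup was left out) and that of *Itga6* to *Itgb1* by 0.29 (0.16 to 0.37). The ratios of *Itgb1* and *Itgb3* to *Itgav* differed by -0.03 and -0.04. Values of the groups overlapped in all 7 ratios.

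Of the laminin receptor subunits, *Itga7* was lower at an unadjusted p under 0.05. This alpha subunit of muscle and vascular cells had a mean of 554 ± 109 normalized counts under vehicle (SD, n = 7) against 426 ± 96.7 under PTU (SD, n = 6), a log2 fold change of -0.39 (SE 0.15, limma adjusted p = 0.238). It ranged from 462 to 779 in controls (median 518) against 329 to 544 under PTU (median 407), with 4 PTU exposed pups below every control. Without PTU pup 6 its log2 fold change was -0.32 (limma unadjusted p = 0.0601). *Itga6*, the laminin receptor of neural progenitors, averaged 712 ± 81.5 and 776 ± 124, with a log2 fold change of 0.12 (SE 0.11, limma adjusted p = 0.633). *Itga3*, the receptor with which migrating cortical neurons and epithelia hold laminin, ranged from 351 to 749 in controls (median 699) against 296 to 883 under PTU (median 504), and its groups overlapped over nearly the whole range. *Itgb4*, the hemidesmosome partner of alpha 6, ranged from 93.1 to 230.5 in controls (median 191) against 105 to 242 under PTU (median 158). Their log2 fold changes were -0.23 and -0.15, and ranged from -0.38 to -0.068 and from -0.30 to -0.034 when a pup was left out. The 3 collagen receptor subunits, *Itga1*, *Itga2* and *Itga11*, had log2 fold changes from -0.46 to -0.31, and none had an unadjusted p under 0.05. *Itga2* stood at -0.095 without PTU pup 4, and *Itga11* at -0.25 without PTU pup 2 and -0.73 without PTU pup 1. *Itga5*, the fibronectin receptor subunit, stood at -0.10 (SE 0.22). *Itga8*, the nephronectin receptor subunit, varied widely, from 71.7 to 376 in controls (median 247) against 78.5 to 376 under PTU (median 137). Its log2 fold change was -0.62 with a standard error of 0.39 (limma adjusted p = 0.438). All 7 RGD receptor subunits had a log2 fold change below 0, against 49.3% of all rows. Of the 7, 1 subunit, *Itgb5*, had an unadjusted p under 0.05, against 8.2% of all rows as lower. *Itga5*, *Itgav*, *Itgb3* and *Itgb8* turned above 0 with equal totals, and *Itga5* and *Itga8* with a choroid plexus marker score as a covariate. *Itga5*, *Itgb3* and *Itgb8* also turned when single pups were left out.

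*Itga9*, a receptor for tenascin C and osteopontin, ranged from 161 to 314 normalized counts in controls (median 191) against 85.4 to 214 under PTU (median 140). Except for PTU pup 4, at 214, the PTU exposed pups lay below every control. The log2 fold change was -0.54 (SE 0.21, limma adjusted p = 0.225, and unadjusted two-sided exact permutation p = 0.0181). Without PTU pup 6 it was -0.40 (limma unadjusted p = 0.0562). *Itga4*, its closest relative, had a higher mean under PTU, with 195 ± 32.0 (SD, n = 7) and 247 ± 65.3 (SD, n = 6) and a log2 fold change of 0.32 (limma adjusted p = 0.376).

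The 4 leukocyte subunits split, with 2 below and 2 above 0, and *Itgal* turned above 0 with equal totals. *Itgam*, the alpha subunit of the complement receptor CR3 on microglia and myeloid cells, ranged from 41.8 to 79.6 normalized counts in controls (median 66.9) against 18.3 to 91.4 under PTU (median 21.6). In 4 PTU exposed pups it was below every control, while PTU pup 1 held the highest value of all. The log2 fold change was -0.99 (SE 0.37, limma adjusted p = 0.213). *Itgb2*, its beta partner, ranged from 29.9 to 122 in controls (median 62.9) against 56.1 to 93.4 under PTU (median 68.7), a log2 fold change of 0.30 (SE 0.30). *Itgae*, the alpha subunit of T cells within epithelia, exceeded the control mean in each of the 6 PTU exposed pups, at 66.3 ± 24.9 and 91.4 ± 20.4, with a log2 fold change of 0.53 (SE 0.29, limma adjusted p = 0.361), which was 0.33 without control pup 2. *Itgal*, the alpha subunit of LFA-1, stood at -0.13. Beside these, 8 of 8 microglia markers had a row, and their summed normalized counts ranged from 1456 to 2204 in controls and from 1498 to 2201 in PTU exposed pups. Their part in the result was not tested.

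Further lists of the pathway were read in the same fit. Of 33 adhesion complex proteins with a row, of 34 listed, 4 were lower (12.1%) and 2 higher (6.06%) at an unadjusted p under 0.05, near the shares of all rows, 8.2% and 8.11%. With equal totals 0 were lower and 2 higher, against 0.555% and 10.8% of all rows. The 3 with the smallest p were *Zyx* (zyxin, on actin at adhesions), *Parva* (alpha parvin, a partner of integrin linked kinase) and *Tns1* (tensin 1), which stood at -0.37, -0.34 and -0.32 on the log2 scale (limma adjusted p = 0.156, 0.179 and 0.209). The 2 higher, named after their values were seen, were the kinases *Fyn* at 0.20 and *Pak1* at 0.26. Of the 33 rows, 24 were below 0, against 49.3% of all rows, with a median of -0.06. With equal totals 5 were below 0, against 21.5% of all rows.

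Of 26 matrix ligands with a row, of 27 listed, 9 were lower (34.6%) and 0 higher at that cutoff, against 8.2% and 8.11% of all rows. Of the 26, 18 were below 0, against 49.3% of all rows, with a median log2 fold change of -0.22. With equal totals 13 were below 0, against 21.5% of all rows, and 1 was lower and 1 higher at that cutoff, against 0.555% and 10.8% of all rows. *Ltbp3* and *Ltbp1*, which hold latent TGF beta in the matrix for alpha v integrins to act on, led this list. *Ltbp3* had a mean of 3753 ± 460 normalized counts under vehicle (SD, n = 7) against 2769 ± 421 under PTU (SD, n = 6), a log2 fold change of -0.44 (SE 0.11, limma adjusted p = 0.122). *Ltbp1* averaged 673 ± 163 and 417 ± 123, a log2 fold change of -0.71 (SE 0.19, limma adjusted p = 0.136). *Postn*, the alpha v ligand periostin, had a log2 fold change of -0.68 (limma adjusted p = 0.171). In neither list did a row pass an adjusted p of 0.05.

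Markers of the choroid plexus were read beside the members, and none passed an adjusted p of 0.05 (lowest 0.156 in limma, for *Clic6*). All 10 listed markers had a row and a log2 fold change below 0, with equal totals too, and 5 of them had an unadjusted p under 0.05, against 8.2% of all rows as lower. Their summed normalized counts ranged from 50764 to 142177 in controls (median 114925) against 23663 to 101427 under PTU (median 57128). Transthyretin (*Ttr*), the main product of this epithelium, made up most of the sum, at 91587 ± 25254 under vehicle (SD, n = 7) and 51490 ± 22179 under PTU (SD, n = 6).

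Values of single pups are set side by side here. Of the 10 members with an unadjusted p under 0.05, PTU pup 6 was the lowest of its group in 8 and PTU pup 4 the highest of its group in 8, while control pup 6 was the lowest and control pup 5 the highest of their group in 5 each. The choroid plexus score, a mean of centred log2 values, was -1.62 in PTU pup 6, 0.65 in PTU pup 4, -0.70 in control pup 6 and 0.69 in control pup 5. Control pup 2 had the highest score, 0.75, and was the highest of its group in 1 of the 10 members and the lowest in 2. The fibroblast score was -1.23 in PTU pup 6, 0.58 in PTU pup 4 and -1.15 in control pup 6, and its group means were 0.016 in controls and -0.018 under PTU. The choroid plexus score itself differed between the groups, with means of 0.34 in controls and -0.40 under PTU. In a fit that holds it, the part shared by the score and PTU cannot be assigned to either. The 10 members were picked by their p in the fit without this score, so how they moved with it is not a test. Rows picked that way over the whole table were not counted. With this score as a covariate, the log2 fold changes of all 10 members became smaller in size. Of the 10, 1 member, *Fermt2*, kept an unadjusted p under 0.05, at a log2 fold change of -0.31 (limma adjusted p = 0.286). In that fit *Lamb2* stood at -0.26, *Itgb5* at -0.14, *Lamc1* at -0.088, *Lama5* at -0.10 and *Lama3* at -0.047, while *Itgam* stood at -0.75, *Itga9* at -0.30, *Itga7* at -0.26 and *Tln1* at -0.16. *Itgb6*, which is not among the 10, went from -0.57 to -0.099. *Lama1* and *Lamb1* had an unadjusted p under 0.05 there, standing at 0.48 and 0.35 (limma adjusted p = 0.326 and 0.359). The median over members was -0.027 with the covariate, and 21 of 35 were below 0, against 48.1% of all rows. In the same fit 6.42% of all rows were lower at an unadjusted p under 0.05.

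**Figure D4:**
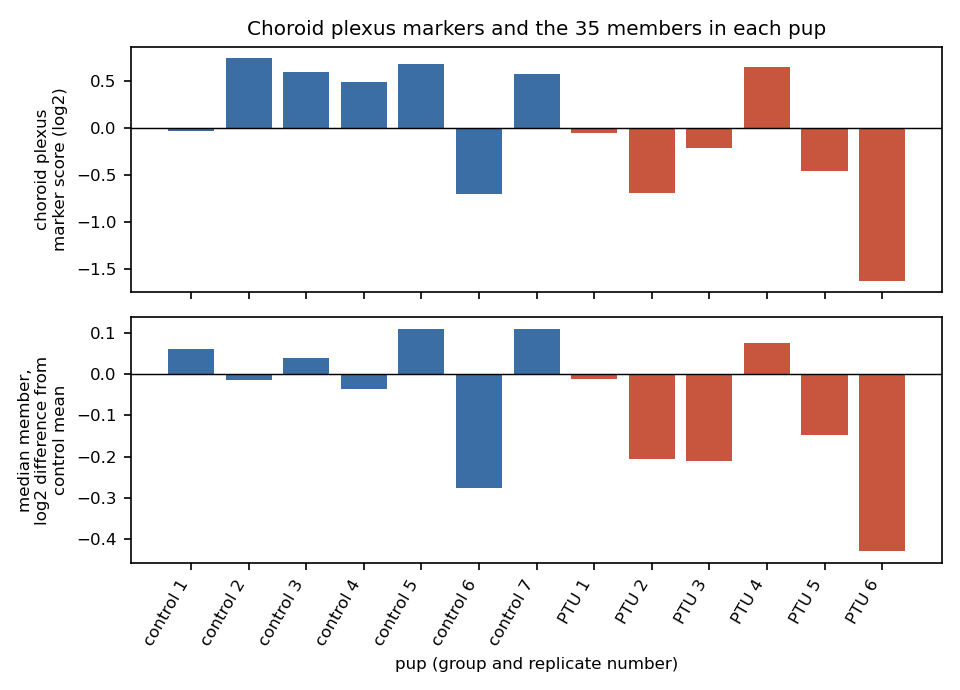
Upper bars give the choroid plexus marker score of each pup (mean of centred log2 values of 10 markers) and lower bars the median over the 35 members of the log2 difference from the control mean; blue marks controls and red PTU exposed pups. PTU pup 6 is lowest in both rows of bars, at -1.62 and -0.43.

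Other cell types were read the same way. Over all rows, 8.2% were lower and 8.11% higher at an unadjusted p under 0.05, and 49.3% were below 0. The 8 endothelial markers with a row, of 10 listed, summed to between 2188 and 3142 normalized counts in controls and between 2367 and 3510 in PTU exposed pups. The 7 mural markers ranged from 5768 to 9102 and from 4538 to 6609, and 2 of them were lower at an unadjusted p under 0.05. With an endothelial and mural score as a covariate, 12 members were lower at an unadjusted p under 0.05, against 8.59% of all rows, and the member median was -0.20. The 7 neuron markers summed to between 51904 and 75585 in controls and between 68111 and 106880 in PTU exposed pups, all 7 with a log2 fold change above 0 and 4 at an unadjusted p under 0.05. The 9 radial glia markers summed to between 74726 and 104143 and between 61911 and 82327, all 9 below 0 and 5 at an unadjusted p under 0.05. With equal totals 8 of the radial glia markers were below 0 and 0 lower at that cutoff, against 21.5% and 0.555% of all rows. For 4 fibroblast markers with a row of 6 listed, the ranges were 1038 to 4762 and 832 to 5301, for 6 oligodendrocyte lineage markers 4316 to 8130 and 5817 to 9191, and for 3 ependymal markers of 4 listed 1213 to 2772 and 969 to 2167. Of the ependymal markers 2 were lower at that cutoff, of the oligodendrocyte lineage markers 1 was higher, of the microglia markers 1 was lower, and of the endothelial and fibroblast markers 0 passed it in either direction. With equal totals 2 endothelial, 1 mural, 3 oligodendrocyte lineage and 4 neuron markers were higher at that cutoff, against 10.8% of all rows. There 2 choroid plexus, 1 ependymal and 0 mural markers were lower, against 0.555% of all rows. No listed marker with a row was at 0 in every pup. The part of these cell types in the result was not tested.

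The scaling of the pups also moved the values. With equal totals for all pups, the median of all rows shifted to 0.20 and the member median to 0.018, with 17 of 35 members below 0. The 10 members kept a log2 fold change below 0 there, *Fermt2* at -0.15, and none of them had an unadjusted p under 0.05. That total holds the 3 highest rows, and once it was taken without them the member median was -0.17, with 28 of 35 below 0, against 48.4% of all rows, and 10 lower at an unadjusted p under 0.05, against 7.69% of all rows.

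**Figure D5:**
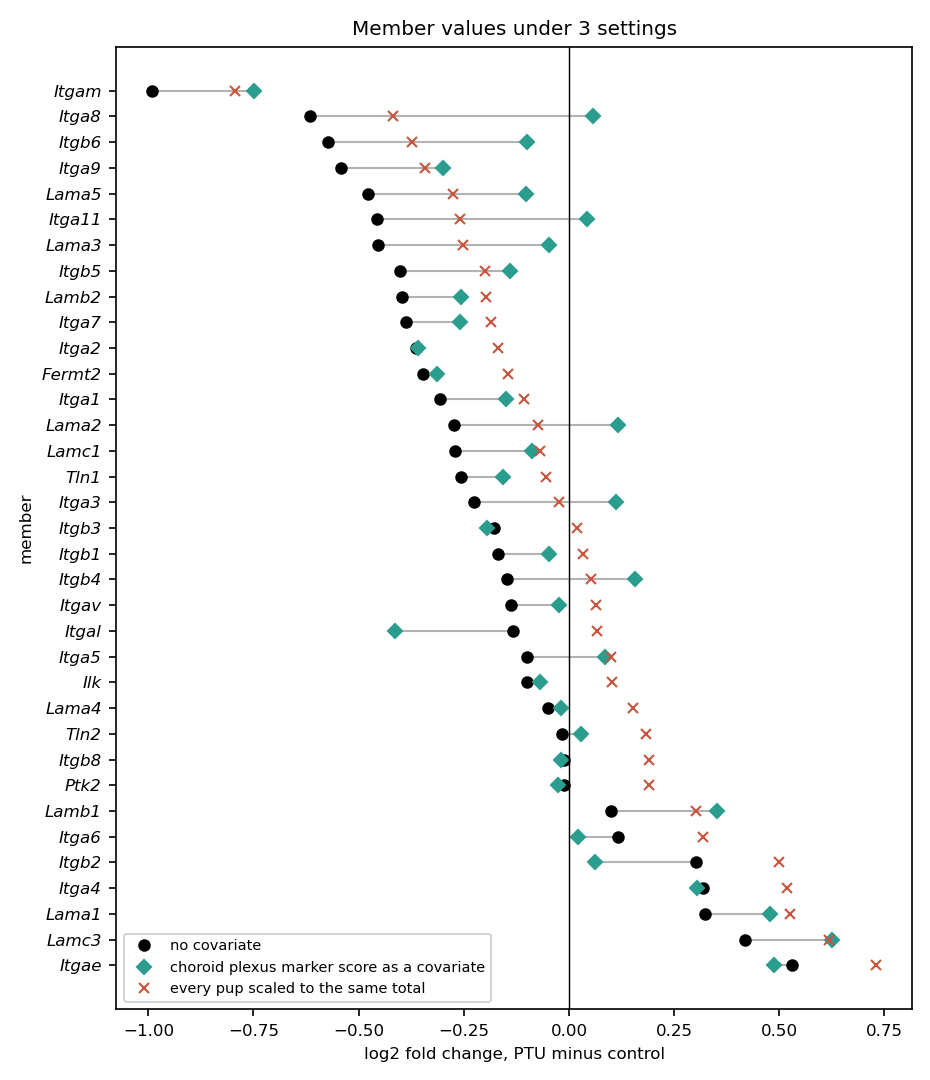
Log2 fold change of each member, PTU minus control, as reported (black circles), with the choroid plexus score added as a covariate (green diamonds) and with equal totals for all pups (red crosses). *Fermt2* keeps its place with the covariate, at -0.31, whereas *Itga8* goes from -0.62 to 0.057.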

How the data were processed

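The values deposited by the authors are a signal that is never negative: estimated counts per row, divided by a median ratio size factor per pup. By the study's methods and the labels, reads were trimmed with Trimmomatic, aligned to mRatBN7.2 with STAR 2.7.8a, and counted with the Partek E/M model. The authors' own fold changes, p-values and group means in the table were not used. Low values were whole multiples of 1 step (within 0.02 of a step, values from 20 to 150) in 88.2 to 89.7% of cases. The step gave an approximate depth per pup, but whole reads were not recovered for nearly all values, so no count model was run. The methods name a RefSeq annotation, whereas rows carry Ensembl identifiers; gene names are those of the table.

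Rows averaging 10 or more were put on the scale log2(normalized count + 1), on which low rows change too little, and PTU was compared with control in limma 3.58.1 (R 4.3.3, moderated with a trended variance) and p adjusted by Benjamini-Hochberg over all 14606 rows. Single members and ratios were compared with exact permutation tests over all 1716 splits of the pups (numpy 2.4.6 under Python 3.11.15, with pandas 2.3.3 and matplotlib 3.10.9). The tests were checked on simulated data. Members shown in full are *Itgav* and its beta partners, the 8 members with the smallest p, any member whose groups do not overlap, and the highest mean of each role. Of the pathway lists, the 3 rows with the smallest p are named. The members, lists and alternatives were chosen with earlier results of these data known. The alternative with the same total without the 3 highest rows was chosen after seeing the data. Another row that fits the rule for members was left out of them and is not reported here. Replicate numbers belong to pups of different litters and were not taken as pairs.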

Additional observations from a re-analysis of the deposited data

Results flagged for a closer look

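Among the 35 members, each group of pups was tested for a single pup far from the others, by the gap to its nearest neighbour as a share of the range of the group (Dixon's criterion). Of 70 groups, 7 were flagged, where chance flags about 1 in 20. PTU pup 1 stood highest in *Itgb3* (65.1 normalized counts, next 26.2, share 0.684) and *Tln2* (2248, next 1780, share 0.657). Control pup 5 stood highest in *Itga7* (779, next 593, share 0.586) and *Itgb1* (7139, next 5724, share 0.614). PTU pup 2 stood highest in *Fermt2* (4207, next 3302, share 0.754), control pup 3 highest in *Lamc3* (168, next 94.7, share 0.633) and control pup 6 lowest in *Lama2* (432, next 619, share 0.595).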

How the results depend on the processing

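Other settings tried were TMM and quantile scaling, equal totals with or without the 3 highest rows, a pseudocount of 0.1 or 10, a low row limit of 100 or none, rows of a gene summed, array weights, no variance trend, the replicate block, both marker scores as covariates, and each of the 13 pups left out. Of the 35 members, 19 kept their direction under each of the 27 in which they had a row, and 8 of the 35 had none at the limit of 100. The count of all rows called was 40 with array weights, 18 with the replicate block and 4 with the choroid plexus score, and ranged from 0 to 179 when a pup was left out (7 without control pup 6, 179 without PTU pup 2). The count of members called was 0 except without PTU pup 2 (range 0 to 1). Members with an unadjusted p under 0.05 numbered 1 with equal totals (higher, *Itgae*, against 10.8% of all rows as higher and 0.555% as lower) and 3 with the choroid plexus score (2 higher, 1 lower), and 6 to 13 when a pup was left out, lowest without PTU pup 6. The member median was 0.018 with equal totals, -0.027 with the choroid plexus score and -0.27 with array weights.

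With equal totals the direction turned for *Ilk* (0.10), *Itga5* (0.10), *Itgal* (0.067), *Itgav* (0.063), *Itgb1* (0.032), *Itgb3* (0.018), *Itgb4* (0.052), *Itgb8* (0.19), *Lama4* (0.15), *Ptk2* (0.19) and *Tln2* (0.18). With the choroid plexus score it turned for *Itga11* (0.042), *Itga3* (0.11), *Itga5* (0.085), *Itga8* (0.057), *Itgb4* (0.16), *Lama2* (0.12) and *Tln2* (0.028). Array weights turned *Itgb8* (0.040) and *Ptk2* (0.0022), the endothelial and mural score *Ptk2* (0.0046), and the replicate block *Itgb8* (0.00061) and *Tln2* (0.0089), the same values as without control pup 7, which has no partner in the block. When each pup was left out in turn, log2 fold changes ranged for *Fermt2* from -0.41 to -0.30, *Itga5* from -0.21 to 0.012, *Itgal* from -0.32 to 0.0089, *Itgb3* from -0.51 to 0.063, *Itgb8* from -0.050 to 0.052, *Lama4* from -0.098 to 0.0074, *Lamb1* from -0.0023 to 0.21, *Ptk2* from -0.036 to 0.014 and *Tln2* from -0.091 to 0.030. Without losing their direction, *Itga6* went from 0.046 to 0.18, *Itgb2* from 0.15 to 0.48, *Itga4* from 0.20 to 0.40, *Itgav* from -0.19 to -0.075 and *Lama2* from -0.38 to -0.15. The differences of ratios ranged for *Itgb3* to *Itgav* from -0.36 to 0.23, *Itgb1* to *Itgav* from -0.11 to 0.034 and *Lamc1* to *Lamb1* from -0.47 to -0.29, and that of *Itgb3* to *Itgav* was 0.024 with a pseudocount of 10. Apart from *Fermt2* without PTU pup 2 and *Lamc1* to *Lamb1* without PTU pup 2, no such change passed an adjusted p of 0.05. The causes were not tested.

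Same-numbered pups of the groups deviated together weakly (correlations across rows from -0.07 to 0.20, over 0.1 in 4 of 6 pairs), so the numbers were not taken as pairs. The replicate block gave 9 members lower and 1 higher (*Lama1*) at an unadjusted p under 0.05, against 10.2% and 10.1% of all rows, and 0 called, and each of 2 of 6 PTU exposed pups correlated best with its own number. Low rows such as *Itgb3* and *Itga2* limit what these values can show.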
